A study of Mus musculus with 2 samples.

Results

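Open chromatin at 10 genes of the transforming growth factor beta (TGF-beta) pathway was described in mouse T helper 2 (Th2) cells, the CD4 T cells that secrete type 2 cytokines. The genes are the ligands Tgfb1 and Tgfb3, the signal transducers Tgfbr1, Tgfbr2, Smad2, Smad3 and Smad4, and the inhibitors Smad7, Ski and Skil, 10 of 21827 protein-coding genes in the annotation. They were chosen by their role in the pathway and not by measured values, although earlier results of these data were known. The assay was ATAC-seq, in which a transposase places sequencing adapters into accessible DNA, and the processed data are 1 list of open regions for each of 2 libraries. Both libraries belong to a single group of primary Th2 cells from the strain C57BL/6NJ, named as biological replicates 1 and 2. No genotype change, treatment, control or second cell type is given, sex and age are not stated, and both biosamples carry the same donor record. Nothing says that separate animals were used, so the spread between the replicates may be technical. No RNA was measured, so the values below do not describe expression. The region names hold the words ASTARR and insert, which the labels do not explain. Whether the sequenced fragments came directly from cells or through a cloned library is therefore not known, and the values are read as open chromatin only as far as the ATAC-seq label goes.

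TGF-beta ligands are secreted in a latent form and, once released, bind the type 2 receptor encoded by Tgfbr2, which recruits and phosphorylates the type 1 receptor encoded by Tgfbr1. The active receptor phosphorylates Smad2 and Smad3, which join Smad4, enter the nucleus and bind DNA, often beside other factors such as AP-1. Smad7 blocks the receptor, and Ski and the protein of Skil (SnoN) hold Smad complexes in a repressed state. In CD4 T cells the pathway is known for restraining effector differentiation and for its part in regulatory and Th17 differentiation.

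A region was kept when it overlapped the gene body or 20 kb on either side by at least 1 bp. Regions of both replicates were joined where they overlapped by at least 1 bp, and a joined region with a member in each replicate is called shared. A promoter region is a shared region that reaches within 1 kb of an annotated start site of a protein-coding transcript. All coordinates are on mm10, and paired values are given for replicate 1 and then replicate 2. Fold enrichment is the authors' ratio of the signal at the summit to local background. The summit pileup and the background behind each ratio were recovered from the fold and its p-value under a Poisson model. The lists held 51458 and 60784 regions on the main chromosomes. All 9 Th2 markers and all 6 matched pan-T cell markers had a promoter region, against 0 of 4 B cell, 0 of 4 myeloid, 2 of 6 CD8 T and natural killer and 2 of 4 stromal markers.

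All 10 genes had a promoter region shared by the replicates. The background was 58.4% of all protein-coding genes and 71.5% of the 8536 protein-coding genes as long as these, from 18.1 to 111 kb. The median fold enrichment at the strongest promoter region of each gene was 9.63 and 10.5, close to the 9.64 and 10.9 over all genes with a promoter region. Smad2 had the highest promoter fold, with 14.0 and 15.7, above 90.5% and 91.5% of open promoters. Tgfb1 had the weakest by this ratio, with 2.86 and 3.10, above only 0.644% and 1.08% of them. Between these lay Ski with 12.5 and 12.1, Tgfbr1 with 12.2 and 12.1, Skil with 10.9 and 11.4, Smad4 with 10.2 and 12.8, Smad3 with 9.07 and 9.33, Tgfb3 with 8.77 and 9.62, Tgfbr2 with 8.28 and 9.63, and Smad7 with 6.53 and 6.06. The counting interval of Smad2 overlapped that of Ski in replicate 1 and that of Smad4 in replicate 2. The counting intervals of neighbours in this order overlapped from Ski down to Tgfbr2 in both replicates, so neighbours in the order are not resolved, whereas Tgfb1 lay below every other gene. The pileups give another order. Ski (270 and 325 counts) and Skil (220 and 291) had the highest pileups, and Tgfb3 (66 and 97) the lowest.

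**Figure D1:**
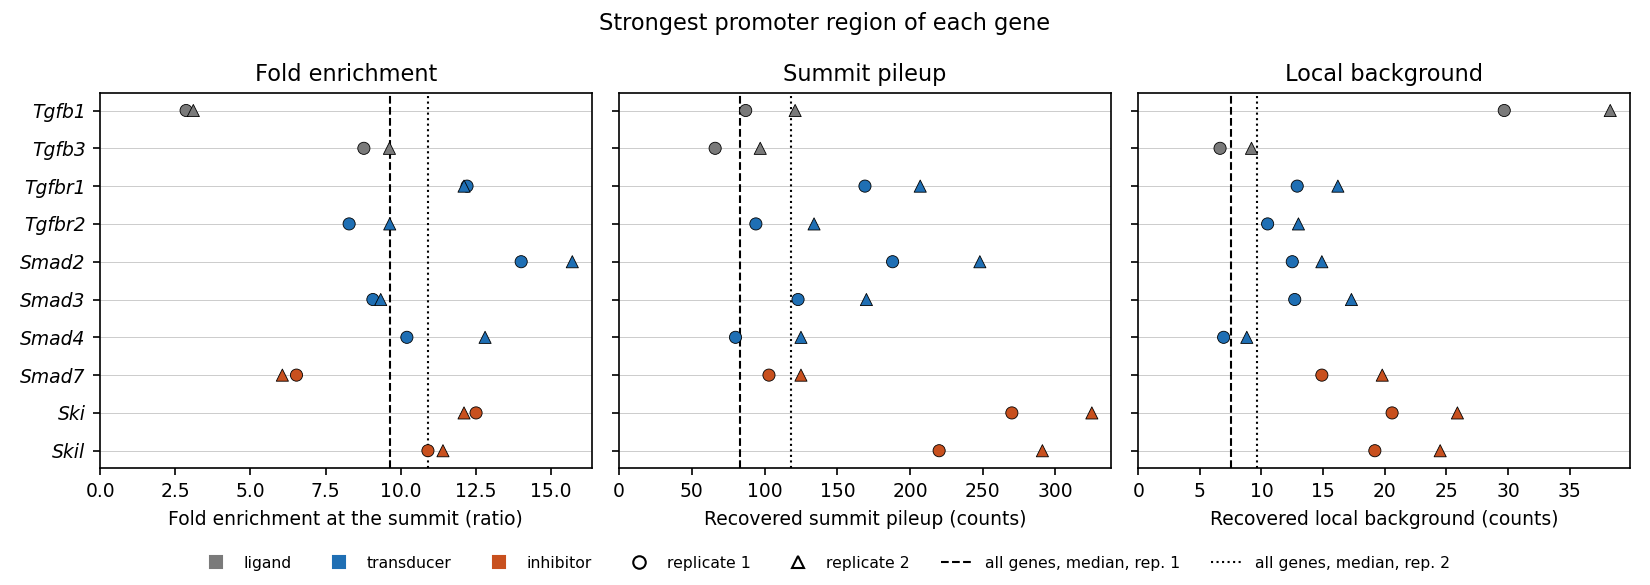
Fold enrichment (left), recovered summit pileup in counts (middle) and recovered local background in counts (right) of the strongest promoter region of each gene; circles are replicate 1, triangles replicate 2, colours the role, and the dashed and dotted lines the medians over all genes with a shared promoter region. Tgfb1 is lowest in fold (2.86 and 3.10) with a middling pileup (87 and 121) and the highest background (29.7 and 38.3).

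Tgfb1, which encodes the main TGF-beta ligand of lymphocytes, lies on chromosome 7 at 25687002 to 25705077 (plus strand). Its promoter region at 25686730 to 25687964 covered the start site, and its summit lay 196 and 194 bp into the 5′ untranslated exon 1. The low fold there came with a pileup of 87 and 121 counts, above 52.3% and 51.4% of open promoters, and a background of 29.7 and 38.3 counts, above 99.7% in each replicate. The median promoter had 83 and 118 counts over a background of 7.56 and 9.61. The ratio at Tgfb1 was low over a middling pileup and a high background. A stronger ratio was found in a region in intron 1 at 25688836 to 25690051, centred 2.44 kb from the start, at 8.84 and 8.39, with pileups of 207 and 235. The 95% counting intervals did not overlap in either replicate, at 2.30 to 3.52 against 7.68 to 10.1 in replicate 1. A region 3.19 kb upstream, within B9d2, had 5.93 and 6.61. Downstream regions at 18.8 and 24.2 kb had 4.95 and 5.53, and 3.06 and 4.01. Of the 8 shared regions in this window, 3 were promoters of the neighbours Tmem91, B9d2 and Ccdc97. The sequences below are the 150 bp upstream of the Tgfb1 start site (chr7:25686852-25687001, plus strand, from RefSeq, GRCm38.p6) and 200 bp at the summit of the intron 1 region (chr7:25689347-25689546, plus strand), shown because the stronger signal lay in the intron. Capitals mark a GGCGCC box, a GC-rich element that Smad proteins can bind, and the upstream stretch held none of the 8 motifs searched.
Tgfb1 upstream: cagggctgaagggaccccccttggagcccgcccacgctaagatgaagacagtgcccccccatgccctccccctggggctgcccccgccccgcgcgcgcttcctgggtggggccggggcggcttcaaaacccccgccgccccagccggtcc
Tgfb1 intron 1: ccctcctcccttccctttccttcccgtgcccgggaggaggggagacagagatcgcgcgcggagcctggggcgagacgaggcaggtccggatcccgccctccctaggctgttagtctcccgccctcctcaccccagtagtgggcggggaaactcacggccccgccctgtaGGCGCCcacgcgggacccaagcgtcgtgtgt

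Tgfb3, a ligand best known from development and from Th17 biology, lies on chromosome 12 at 86056745 to 86079041 (minus strand) and had the fewest shared regions, 2. Its promoter region at 86078624 to 86080080 had fold enrichments of 8.77 and 9.62, with the summit 510 bp upstream of the start in both replicates. The other shared region lay 31.9 kb from the start, past the 3′ end and within Ttll5, with 5.67 and 8.52. No intronic region was shared, and 3 more regions were found in 1 replicate alone. Of all protein-coding genes, 63.0% had at least 2 shared regions in their windows.

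Tgfbr1, encoding the type 1 receptor kinase, lies on chromosome 4 at 47353222 to 47414931 (plus strand), and Tgfbr2, encoding the type 2 receptor that binds the ligand, on chromosome 9 at 116084293 to 116175360 (minus strand). The Tgfbr1 promoter region at 47351528 to 47353948 was 2421 bp wide, with 12.2 and 12.1. Regions in its introns 1, 4 and 8 had 4.65 and 5.59, 7.21 and 9.29, and 4.76 and 7.71. The Tgfbr2 promoter region at 116174365 to 116176026 had 8.28 and 9.63. Tgfbr2 carried 6 intronic regions, 4 of them in intron 1, which is 43.2 kb long. The strongest by mean fold lay in intron 6 at 116090947 to 116091685, 84.0 kb from the start, with 6.91 and 10, and the intron 1 regions centred 22.1 and 38.1 kb from the start had 7.01 and 9.01, and 7.03 and 8.79. The remaining intronic regions of Tgfbr2 had 4.00 and 4.13, 2.89 and 3.69, and, in intron 3, 3.26 and 6.12. One flanking region 14.2 kb upstream had 4.64 and 4.71, within 1 kb of an annotated start of the long non-coding RNA Gm4668. All 9 intronic regions of the receptor genes were higher in replicate 2, as were most shared regions genome-wide, of which 28.7% were lower.

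In 200 bp at the summit, both receptor genes held an AP-1 consensus (TGANTCA) whose last bases are the first of a SMAD box (CAGAC), in Tgfbr1 intron 8 (chr4:47407254-47407453) and Tgfbr2 intron 6 (chr9:116091151-116091350). These were the only 2 of the 47 regions outside promoters in which the elements overlapped in this way (4.26%), against 1.25% of 31521 such regions genome-wide. This arrangement was picked out after the sequences had been seen, and a match does not show that either factor was bound. Tgfbr1 intron 4 (chr4:47400344-47400543) held both elements apart from each other. The 3 windows are printed on the plus strand, with matches to any of the 8 motifs in capitals.
Tgfbr1 intron 4: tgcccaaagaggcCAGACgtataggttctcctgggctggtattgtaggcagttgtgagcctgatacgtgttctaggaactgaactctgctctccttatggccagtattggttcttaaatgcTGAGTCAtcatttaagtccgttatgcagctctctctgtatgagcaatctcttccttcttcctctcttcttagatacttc
Tgfbr1 intron 8: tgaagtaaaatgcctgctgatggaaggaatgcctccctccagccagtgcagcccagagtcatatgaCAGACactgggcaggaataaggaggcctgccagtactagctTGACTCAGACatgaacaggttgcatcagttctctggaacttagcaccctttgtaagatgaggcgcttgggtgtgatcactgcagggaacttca
Tgfbr2 intron 6: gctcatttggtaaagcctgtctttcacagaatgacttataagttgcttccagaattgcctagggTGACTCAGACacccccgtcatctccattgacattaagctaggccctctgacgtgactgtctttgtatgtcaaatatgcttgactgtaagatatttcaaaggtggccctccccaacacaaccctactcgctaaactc

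Smad3, one of the 2 receptor-activated Smads of the pathway, lies on chromosome 9 at 63646767 to 63757994 (minus strand) and had the most shared regions, 11. Of protein-coding genes as long as these, 1.63% had as many or more, against 1.99% of all protein-coding genes. Smad3 was the longest of the 10 at 111 kb, so no gene in that length range is longer than Smad3. Its promoter region at 63756870 to 63758738 had 9.07 and 9.33. The other 10 regions all lay in intron 1, which is 89.5 kb long, from 3.0 to 83.1 kb from the start. Of genes in the same length range, 0.246% had 10 or more shared intronic regions, against 0.861% of all protein-coding genes. The strongest, at 63706248 to 63707042 and 51.3 kb from the start, had 11.5 and 11.7, above the promoter in both replicates, although the counting intervals of the 2 overlapped. Next in mean fold were a region of 9.66 and 9.03 (63737423 to 63739210), one of 9.55 and 8.68 (63674523 to 63675201), one of 7.38 and 7.68 (63677739 to 63678569) and one of 8.91 and 5.75 (63745818 to 63746286). The 5 weaker regions ran from 2.69 to 7.55 in replicate 1 and from 3.10 to 5.59 in replicate 2. An AP-1 consensus was present within 100 bp of the summit in 7 of the 10, against 28.8% of all shared regions outside promoters, a count made after the matches had been seen. The window of the strongest is printed (chr9:63706441-63706640, plus strand), with the AP-1 match (TGACTCA) and a GGAAGT match, the core that ETS factors bind, in capitals.
Smad3 intron 1: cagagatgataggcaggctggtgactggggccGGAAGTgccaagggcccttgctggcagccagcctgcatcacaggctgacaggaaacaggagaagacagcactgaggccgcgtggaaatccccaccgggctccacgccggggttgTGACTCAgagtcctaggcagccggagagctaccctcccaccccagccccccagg

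Smad2, the other receptor-activated Smad, and Smad4, the partner that both share, lie on chromosome 18 at 76241580 to 76310963 (plus strand) and at 73639009 to 73703780 (minus strand). The main Smad2 promoter region at 76240898 to 76242026 had 14.0 and 15.7, and its summit lay 17 and 42 bp upstream of a start site. The 2 weaker regions that also counted as promoter lay at 76242168 to 76242458 with 2.56 and 2.44, and before an internal start site at 76259606 to 76260301 with 4.53 and 5.08. Smad2 intron 1 held regions of 5.19 and 7.81 and of 8.83 and 7.46, and nothing shared was found over the remaining 3′ part of the gene or in its 3′ flank. The Smad4 promoter region at 73702998 to 73704386 had 10.2 and 12.8 and the highest ratio of observed to expected CpG among the 10 promoters, 1.01. Smad4 introns held 4 regions, the strongest in intron 10 at 73642997 to 73643686 with 7.21 and 9.14. Past its 3′ end lay a region of 6.51 and 8.44 (73622734 to 73623547). A weaker one followed, of 2.94 and 2.99 (73626882 to 73627251).

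Smad7, the inhibitory Smad, itself induced by TGF-beta in many cells, lies on the same chromosome at 75367529 to 75395935 (plus strand). Its main promoter region at 75366392 to 75367986 had 6.53 and 6.06, with pileups of 103 and 125 counts over a background of 14.9 and 19.8. The background was above 91.1% and 91.8% of open promoters. The 2 regions near internal start sites in intron 1 had only 2.35 and 2.66, and 1.89 and 2.10, and one in intron 2 had 2.35 and 1.91. These 3 regions had pileups of 32 to 39 counts in replicate 1 and 36 to 56 in replicate 2. By fold, the strongest region of Smad7 was not its promoter. It lay upstream at 75353452 to 75354103, centred 13.8 kb from the 5′ end, with 13.1 and 13.9 (counting intervals 10.4 to 16.3 and 11.5 to 16.6). Its pileup of 80 and 118 counts was below that of the promoter region, over a lower background of 5.19 and 7.56. By fold it stood above 95% and 94.1% of all regions in the lists and had the highest value of the 47 regions outside promoters in both replicates. Its interval overlapped those of the Smad3 intron 1 region of 11.5 and 11.7 and of the region upstream of Ski of 8.23 and 9.69 in both replicates. Further regions overlapped it in 1 replicate, so this rank is not resolved. By pileup, others were higher, among them the Tgfb1 intron 1 region with 207 and 235 counts. Intron 3 carried a region of 8.26 and 9.02 (75377152 to 75378065), with pileups of 90 and 129 counts. These were below the 103 of the promoter region in replicate 1 and above its 125 in replicate 2. Another intron 3 region had 5.51 and 7.92 (75387343 to 75387891), and a region 42.9 kb from the 5′ end had 3.08 and 3.16.

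Ski, a corepressor that binds Smad complexes, lies on chromosome 4 at 155154075 to 155222592 (minus strand). Its promoter region at 155223032 to 155223984 had 12.5 and 12.1 and ended 440 bp upstream of the nearest start site. It was the only main promoter region of the 10 that did not cover a start site, and its summit lay 753 and 779 bp upstream. A further region in exon 1, at 155221703 to 155222303 with 2.48, was present in replicate 2 alone. The 4 shared intronic regions, all in intron 1, had 6.84 and 5.70, 4.56 and 5.53, 4.01 and 5.07, and 3.69 and 7.48. The last of these differed most between replicates among the 64 regions. A flanking region 12.9 kb upstream (155235011 to 155236071) had 8.23 and 9.69. Another, past the 3′ end (155150231 to 155151382), had 6.20 and 9.36.

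Skil, encoding the Ski-related corepressor SnoN, which TGF-beta both degrades and induces, lies on chromosome 3 at 31095058 to 31122577 (plus strand). Its promoter region at 31093580 to 31096072 was the widest of the 10 at 2493 bp, with 10.9 and 11.4 and pileups above 97.0% and 96.0% of open promoters. The background there was high as well, above 96.6% in each replicate. The summit lay 357 and 355 bp upstream of a start site. Within 100 bp of it there were 4 SMAD boxes (CAGAC or its complement), a number reached by 16 of 12537 promoter regions (0.128%) in the same window. This window was chosen after the counts had been seen, and it is printed on the plus strand (chr3:31094603-31094802) with the 4 boxes in capitals. Of the other main promoter regions, only that of Tgfb1 held a SMAD box there, 1. Intron 2 of Skil held a narrow region of 5.06 and 3.35 (31105019 to 31105255) and another of 4.99 and 8.32 (31109066 to 31109451), which differed between replicates in opposite directions.
Skil promoter summit: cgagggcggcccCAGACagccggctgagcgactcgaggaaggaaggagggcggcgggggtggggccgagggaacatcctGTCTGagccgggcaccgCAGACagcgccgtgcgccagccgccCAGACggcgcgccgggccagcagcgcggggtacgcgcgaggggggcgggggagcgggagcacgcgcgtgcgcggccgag

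Fold enrichment at promoters overlapped between transducers and inhibitors. The median was 10.2 and 12.1 for the 5 transducers, with ranges of 8.28 to 14.0 and 9.33 to 15.7. For the 3 inhibitors it was 10.9 and 11.4, with ranges of 6.53 to 12.5 and 6.06 to 12.1. Inhibitors minus transducers gave 0.705 in replicate 1 and -0.691 in replicate 2, so the difference changed sign between replicates. By summit pileup the inhibitor median was higher in both, at 220 against 123 counts and 291 against 170. Ski and Skil exceeded all 5 transducers, while Smad7, at 103 and 125, lay within their range. The local background of Ski (20.6 and 25.9 counts) and of Skil (19.2 and 24.5) was also high. It was above 97.6% and 97.3% of open promoters for Ski and above 96.6% in each replicate for Skil. The shared regions per gene had a median of 7 for transducers and 8 for inhibitors, which differed by less than the members did within each group. This difference of 1 became -1 without replicate 1 or with the gene body alone, and 0 without replicate 2. Intronic regions numbered 25 over the 5 transducers and 9 over the 3 inhibitors, and the transducers were also longer, with a median of 69.4 kb against 28.4. Median intronic fold enrichment was 6.60 and 6.55 for transducers and 4.99 and 5.70 for inhibitors, within ranges that overlapped widely (2.69 to 11.5 and 2.35 to 8.26 in replicate 1). With 3 genes against 5 and 1 group of cells, no test of these differences was made.

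The windows of the 10 genes held 64 shared regions, none counted under more than 1 gene. They were 14 promoter regions, 3 promoters of neighbouring genes, 35 intronic regions and 12 flanking regions, 5 upstream and 7 downstream. None outside the promoters was centred in an exon. The median gene had 7.5 shared regions, against 2 over all protein-coding genes and 3 over those of the same length range, whose 75th percentile was 5. Tgfb3, with 2, and Skil, with 3, did not exceed that median. At least 1 shared intronic region was present in 9 of the 10 genes, all but Tgfb3, against 27.1% of all protein-coding genes and 43.9% of those in the length range. Intron 1 held 24 of the 35, 10 of them in Smad3.

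**Figure D2:**
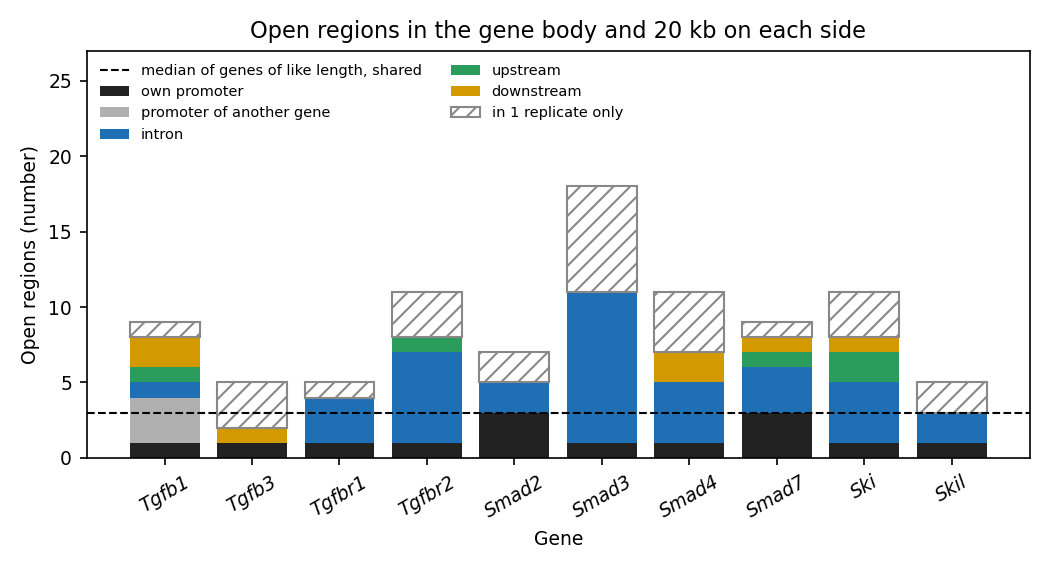
Number of open regions per gene, flanks of 20 kb included, with shared regions stacked by class and regions found in 1 replicate alone hatched; the dashed line is the median number of shared regions, 3, of protein-coding genes from 18.1 to 111 kb long. Smad3 has the most, with 11 shared and 7 in 1 replicate.

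Intronic and promoter regions differed in sequence composition. The strongest promoter region of each gene had a median ratio of observed to expected CpG of 0.797, from 0.567 at Tgfb3 to 1.01 at Smad4, and a median GC content of 66.9%. Intronic regions had a median CpG ratio of 0.195 and a GC content of 48.8%. The highest intronic CpG ratio, 0.625, was that of the Tgfb1 intron 1 region, close to the 0.659 of the Tgfb1 promoter region. Promoter regions were also wider, with a median of 1420 bp against 679 bp for intronic regions. Median fold enrichment of intronic regions was 5.19 and 6.55, close to the 5.51 and 6.30 over all shared regions away from protein-coding promoters.

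**Figure D3:**
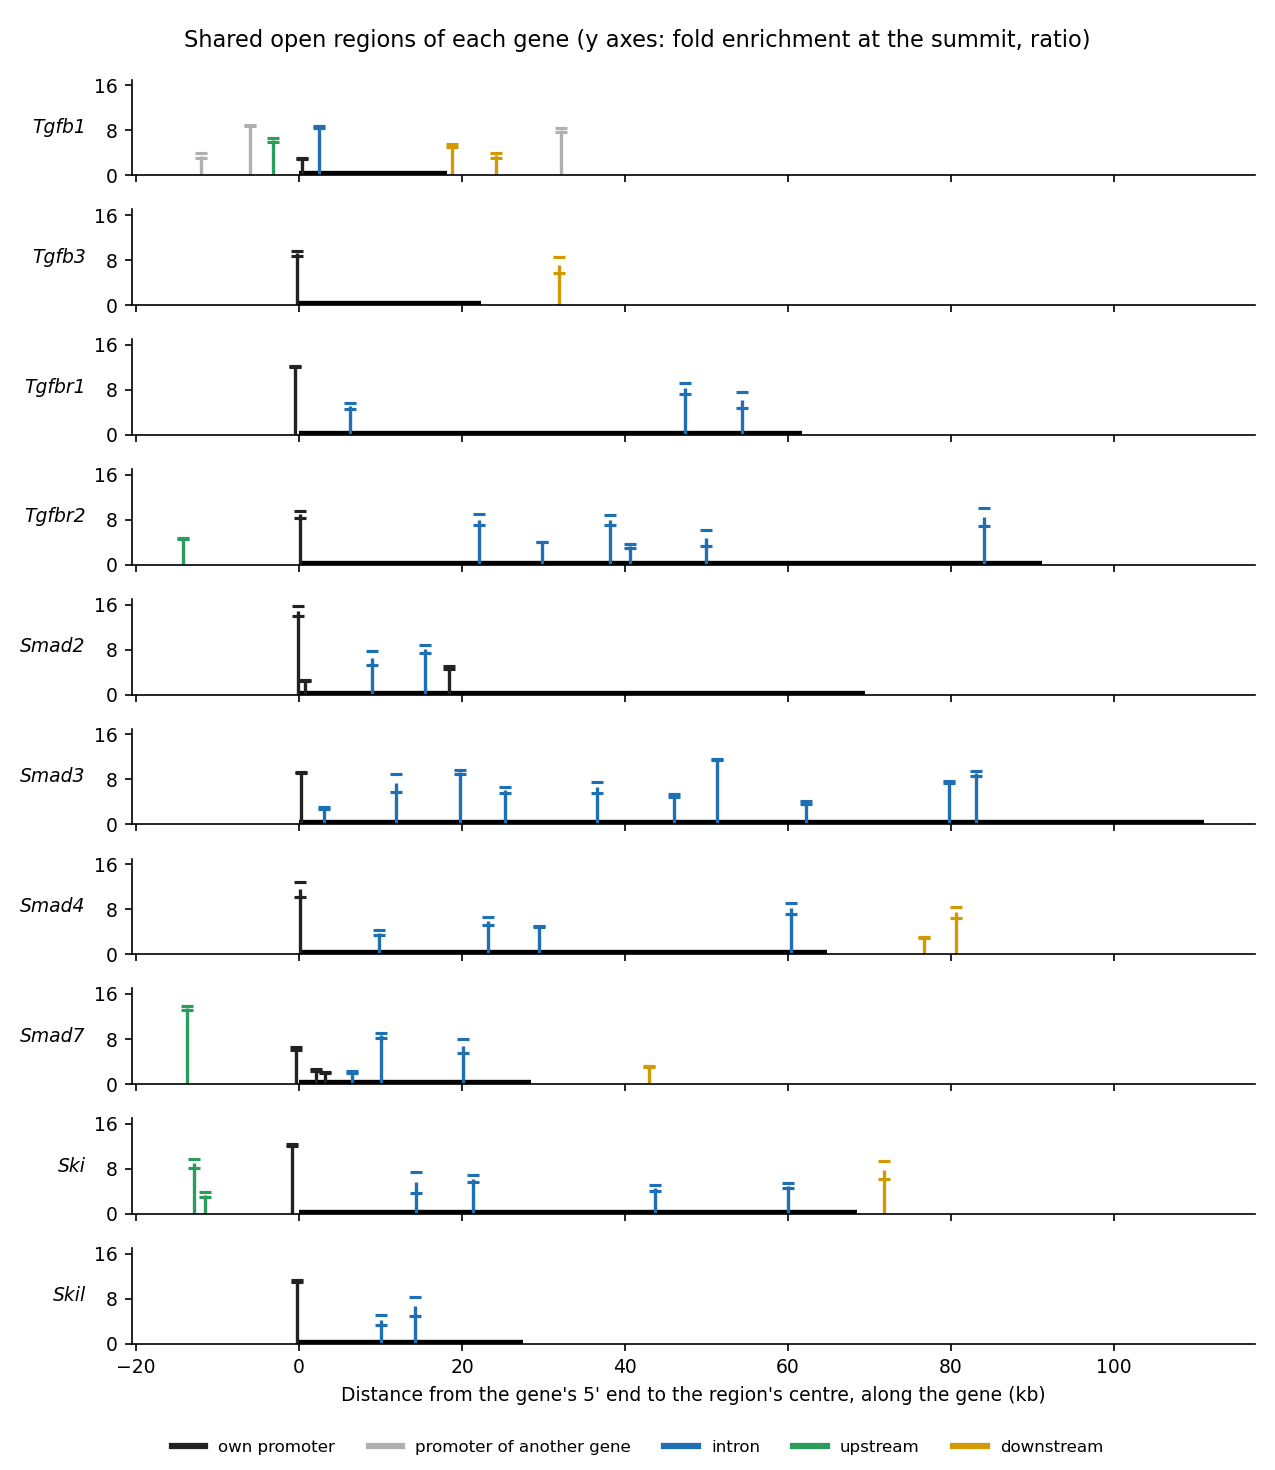
Position of each shared region by the distance of its centre from the gene's 5′ end (kb, along the gene); the height of a line is the mean fold enrichment (ratio), the ticks are the 2 replicates, the black bar is the gene body and colours give the class. The 10 regions of Smad3 intron 1 spread from 3.0 to 83.1 kb, and the tallest line outside promoters, by fold, is that 13.8 kb upstream of Smad7.

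Most regions of these genes were found in both replicates. Of the 72 regions of replicate 1 in these windows, 67 (93.1%, with a 95% Wilson interval from 84.8 to 97.0) had a counterpart in replicate 2, against 86.7% genome-wide. Of the 86 regions of replicate 2, 64 (74.4%, 64.3 to 82.5) overlapped one of replicate 1, against 73.5%. Both intervals treat the regions as independent, although they cluster at these genes, so they do not serve as a test. The ratio of replicate 2 to replicate 1 had a median of 1.11 over the 64 regions, the same as over all shared regions, and 6 lay outside the genome-wide 5th to 95th percentiles of 0.760 to 1.64. Above this range were Ski intron 1 at 2.03, Tgfbr2 intron 3 at 1.88 and Skil intron 2 at 1.67. Below it were 2 regions of Smad3 intron 1, at 0.646 and 0.738, and the other Skil intron 2 region at 0.663. In Smad3 intron 1, 6 of 10 regions were lower in replicate 2, against 6 of 25 intronic regions of the other genes and 28.7% of all shared regions, with median ratios of 0.922 and 1.27. The Smad3 regions share a locus, and whether this difference between the libraries has a technical source was not tested.

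**Figure D4:**
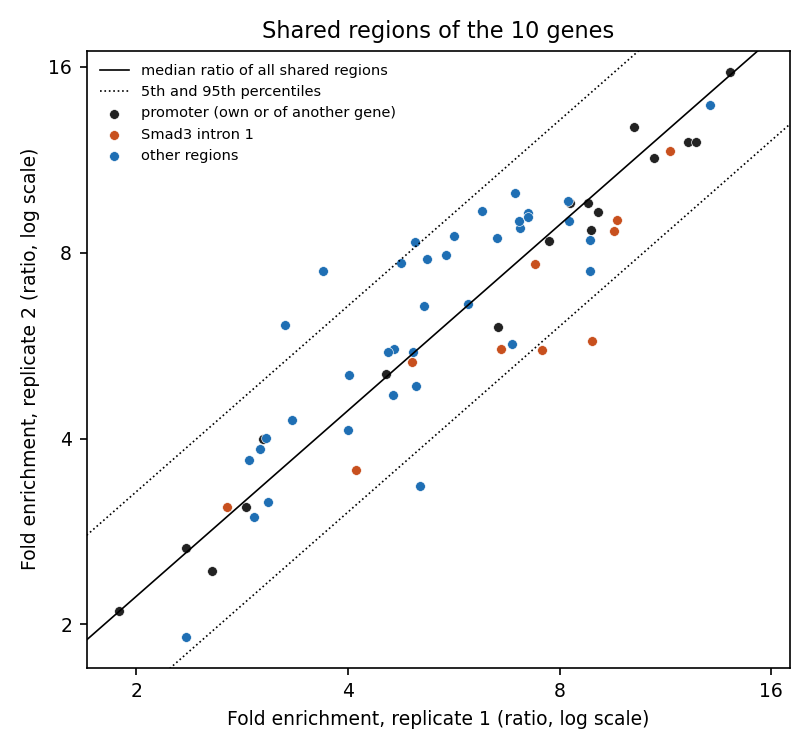
Fold enrichment (ratio, log scales) of the 64 shared regions in replicate 1 and replicate 2; the solid line is the median ratio of all shared regions, 1.11, and the dotted lines its 5th and 95th percentiles, 0.760 and 1.64. Most points lie between the dotted lines, and 2 of the 3 points below them are in Smad3 intron 1.

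Regions found in 1 replicate alone numbered 5 in replicate 1, with fold enrichments from 2.70 to 3.30, and 22 in replicate 2, from 2.16 to 6.18. The strongest were upstream of Tgfbr2 with 6.18, upstream of Tgfb3 with 6.01 and downstream of Tgfbr2 with 5.99, all in replicate 2. Smad3 had 7 such regions, the most of any gene. Replicate 2 also had higher pileups, with a median of 61.5 counts over the shared regions of these genes against 38 in replicate 1. Library depth is not given, so depth and enrichment cannot be told apart here.

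Searched on both strands in 200 bp at the summits, the 8 motifs were counted in these regions beside their genome-wide shares, with no test. Outside promoters, the SMAD box CAGAC was present in 22 of 47 regions (46.8%) against 42.0% of all such regions. The AP-1 consensus TGANTCA was present in 15 (31.9%, against 28.8%). A GATA sequence (AGATAA, or alternatively TGATAA), the element of factors such as the Th2 regulator Gata3, was present in 8 (17%, against 19.2%), and the ETS core GGAAGT in 10 (21.3%, against 22.1%). The RUNX sequence TGTGGTT was present in 3 (6.38%, against 9.76%), GGCGCC in 2 (4.26%, against 3.44%), and the E-box CCACGTG in 1 (2.13%, against 1.94%). In the 14 promoter regions, GGCGCC was present in 4 (28.6%, against 19.1% of promoter regions), CAGAC in 4 (28.6%, against 33.7%), and the ETS core, the E-box and the GATA sequences in 1 each (7.14%, against 21.1%, 4.07% and 4.32%). The AP-1 consensus and the RUNX sequence were in 0 of the 14 (against 4.51% and 2.5%). The SMAD palindrome GTCTAGAC was in none of these regions and in 0.160% of promoter and 0.216% of other regions. CAGAC can overlap the end of TGANTCA, as at the receptor genes, and GTCTAGAC does not contain CAGAC.

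Of 69 other genes of the pathway, 58 (84.1%) had a promoter region, against 58.4% of all protein-coding genes. Shares were 12 of 14 among ligands and proteins of ligand activation, 8 of 10 among receptors and 12 of 13 among Smads and their adaptors. They were 11 of 13 among inhibitors, 4 of 4 among ubiquitin regulators that act on the inhibitors and 11 of 15 among target genes. Genes without one were Dcn and Itgb6, the receptors Acvrl1 and Bmpr1b, known from endothelium and from skeletal and reproductive tissues, the Smad partner Foxh1, the neural corepressors Skor1 and Skor2, and the targets Foxp3, Itgae and Spi1. The remaining target without one was Tgfbi, an extracellular matrix protein gene.

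The most shared regions in each group were at Itgav (10), Ltbp4 (9) and Ltbp3 (8), at Tgfbr3 (12), Acvr1b (6) and Bmpr2 (5), at Tab2 (6), Tab1 (5) and Crebbp (4), and at Nedd4l (14), Fkbp1a (12) and Pmepa1 (5). They were at Rnf111 (7), Usp15 (4) and Usp11 (2) among the ubiquitin regulators that act on the inhibitors and at Junb (9), Runx3 (9) and Foxp3 (7) among the targets. Id3, Itgae and Myc also had 7. All these counts cover the gene body and its flanks, and include any promoter of a neighbouring gene there. Of the regions at Junb and Foxp3, 0 were intronic, against 4 at Runx3, and Foxp3 had no promoter region. Tgfbr3 encodes betaglycan, a coreceptor that presents ligand to Tgfbr2, and had 8 intronic regions, more than the 6 of Tgfbr2. Nedd4l, a ubiquitin ligase that removes activated Smad2 and Smad3, had 11 intronic regions. Among the BMP and activin receptors, Bmpr2 had promoter fold enrichments of 11.4 and 13.2 and Acvr1b of 11 and 13.0. Both genes were above Tgfbr2, with 8.28 and 9.63. Against Tgfbr1, with 12.2 and 12.1, both were lower in replicate 1 and higher in replicate 2. Smad1, Smad5 and Smad9, the Smads of the BMP branch, had 8.72 and 9.19, 8.58 and 9.03, and 5.13 and 3.61. All were lower than Smad2, the highest of the 10 genes. Smad1 and Smad5 lay near Smad3 (9.07 and 9.33), inside its counting intervals of 7.55 to 10.8 and 7.99 to 10.8. Smad6, the other inhibitory Smad, had 8.63 and 8.99, higher than Smad7. Bambi, a decoy receptor gene, had one of the strongest promoters of the list by ratio, with 16 and 15.5.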

How the data were processed

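ATAC-seq was analysed in 2 libraries of 1 group of mouse Th2 cells. Per the file headers, the authors made each region list from a single library's alignment to mm10, without pooling. Region names carry the words masked, dedup and sorted, and also ASTARR, insert and a time in hours, whose meaning is not given in the sources used here. Aligner, peak caller and versions are likewise not given. The deposited fold enrichment is a ratio at the summit, p-values and q-values were deposited as −log10, the other deposited value used is the summit offset in bp, and the deposited score was not used. Fold values describe and rank regions within a list.

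Genes and start sites came from the GENCODE M21 basic annotation (GRCm38), and 0 chromosomes had a region past their end. Intron numbers refer to the principal protein-coding transcript. The whole-number pileup that, with a pseudocount of 1 and a Poisson tail, returned the deposited −log10 p within 0.001 was found for 2059 of 2059 and 2432 of 2432 regions checked (every 25th), and intervals on fold are exact 95% Poisson intervals of that pileup. They cover counting error only, and no library depth is given. Joining and recovery were tested on simulated data. Sequences were read from GRCm38.p6, and 5 of the 10 genes were in the RefSeq promoter table. Motif windows were 200 bp at the summit of the replicate with the higher fold. Analyses used Python 3.11.15, SciPy 1.17.1, pandas 2.3.3 and pysam 0.24.0. No test was made, since there is no contrast between samples and regions are not replicates. Named genes were all 10 members with their promoter regions and 5 strongest other shared regions, and of each pathway group the 3 genes with the most shared regions, ties taken alphabetically, and up to 3 without a promoter region. Outside this rule, weaker regions, Smad1, Smad5, Smad6, Smad9, Tgfbi and Bambi were added after their values were seen. Of the sequences that the rule takes, those at Tgfb3, Ski and Skil outside promoters are not printed. The members and lists were chosen with earlier results of these data known.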

Additional observations from a re-analysis of the deposited data

How the results depend on the processing

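All 10 genes kept a promoter region under each of the 7 alternatives tried. These were a narrower and a wider promoter distance, the gene's 5′ end alone and −log10 q of at least 10. Reciprocal overlap of 50% and either replicate alone were the others. The wider distance could not remove a promoter region. Either replicate alone could do so only where the joined region reached the start site through the other replicate. Of 54 alternative values in all, 39 stayed within the replicate spread, the Wilson interval or 1.5 times the count. The other 15 were classed as moved. Among these, the values on the −log10 p and pileup scales were classed so without a comparison. With −log10 q of at least 10 only, shared regions fell to 41 and intronic ones to 20, the regions-per-gene difference to 0, and the share of replicate 1 found in replicate 2 became 100%; the filter leaves fewer regions. With 100 kb flanks there were 145 regions and the per-gene difference was 3; with the gene body alone it was -1. Under reciprocal overlap the shares found in the other replicate were 72.2% and 60.5%. With 1 replicate left out, inhibitors minus transducers ranged from -0.691 to 0.705 in promoter fold (SD between replicates 0.987) and from -1 to 0 in regions per gene. The promoter difference was 1.98 with the ligands counted as transducers, 83.5 on the −log10 p scale and 109 counts by pileup, an alternative added after seeing the data. Depth limits weak regions: the lowest pileups among shared regions were 11 and 13 counts.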
